A study of Mus musculus with 18 samples.

Results

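The general pluripotency genes Pou5f1, Sox2, Nanog, Sall4, Lin28a, Utf1, Dppa2, Dppa4, Dppa5a and L1td1 were followed from naïve mouse embryonic stem cells (ESCs) to epiblast-like cells (EpiLCs), with and without Δ9-tetrahydrocannabinol (Δ9-THC), the main psychoactive compound of cannabis. The 10 genes were taken by name, matched to their Ensembl identifiers, and all 10 were present in the ESC table of 13104 genes and in the EpiLC table of 13717 genes. RNA was sequenced from 12 libraries in 4 groups of 3 biological replicates: ESCs given vehicle (labelled Mock-treated), ESCs given Δ9-THC at 100 nM, EpiLCs given vehicle, and EpiLCs given Δ9-THC at 100 nM. The cells of all 4 groups carry the Blimp1::mVenus and Stella::ECFP reporter transgenes of the germline genes Prdm1 and Dppa3, and the ESCs were grown without feeder cells, in LIF and inhibitors of MEK and GSK3. EpiLCs were derived from the ESCs of the same exposure in activin A and bFGF, and the exposure went on through the transition, so that an EpiLC group carries the exposure of both stages. The cells descend from a clonal reporter line, so that the biological replicates share 1 genotype and do not stand for separate animals.

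Pluripotent cells can form every tissue of the embryo proper. Their identity rests on a small network of transcription factors, in which Oct4 (the product of Pou5f1) and Sox2 bind DNA side by side on a joint octamer and HMG-box element, and Nanog, a homeodomain factor, and Sall4, a zinc finger factor, occupy many of the same regulatory regions. Naïve cells resemble the epiblast before implantation, and EpiLCs resemble the epiblast just after it. Genes such as Klf4 and Esrrb are known to be shut down between those states, while a general set of factors stays on. The remaining genes of this set act on RNA or chromatin. Lin28a encodes an RNA-binding protein that blocks maturation of let-7 microRNAs, L1td1 an RNA-binding protein derived from a LINE-1 transposon, and Dppa5a a small KH-domain protein. Utf1 encodes a chromatin-associated factor, and Dppa2 and Dppa4 encode a pair of related proteins that bind each other and act at developmental promoters.

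The reference sequence upstream of these genes was examined first, because Oct4 and Sox2 are themselves in the set. RefSeq promoter windows of the GRCm38.p6 build were found for 6 of the 10 genes (Pou5f1, Sox2, Nanog, Lin28a, Utf1 and L1td1), and the 250 bases before each annotated start were searched on both strands. The octamer core ATGCAAA was present in 4.12% of all 32851 windows and the HMG core CATTGT in 10.7%. The HMG core followed after 1 base by the octamer core on the same strand (the composite) was found in 2 windows. Those were the overlapping windows of the 2 annotated Nanog starts. The opposite order of the cores was not searched. Sox2 had the octamer core 99 to 93 bases before its RefSeq start (chr3:34649995), which lies upstream of the gene start given below. In Nanog the composite lay 75 to 62 bases before the upstream start, read on the opposite strand. These upstream stretches are printed 5′ to 3′ on the strand of the gene (plus for both), with the octamer and HMG cores in capitals, to show that composite beside an octamer core that stands alone.
Nanog, chr6:122707239-122707488: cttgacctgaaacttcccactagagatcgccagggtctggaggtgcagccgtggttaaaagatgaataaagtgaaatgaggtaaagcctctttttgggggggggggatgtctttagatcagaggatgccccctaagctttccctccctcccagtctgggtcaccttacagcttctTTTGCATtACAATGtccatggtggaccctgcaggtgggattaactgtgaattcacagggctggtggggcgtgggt
Sox2, chr3:34649745-34649994: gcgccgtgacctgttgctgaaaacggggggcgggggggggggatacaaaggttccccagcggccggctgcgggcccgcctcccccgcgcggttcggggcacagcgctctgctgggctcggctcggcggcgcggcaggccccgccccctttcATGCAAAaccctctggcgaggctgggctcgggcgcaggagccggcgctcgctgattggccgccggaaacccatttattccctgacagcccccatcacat
Elsewhere, the HMG core alone was found once before the Lin28a start (96 to 91 bases) and once before the downstream of the 2 Pou5f1 starts (158 to 153 bases). The GC box GGGCGG, present in 32.7% of all windows, occurred 4 times in the Utf1 window, 2 times in that of Sox2 and 1 time before the upstream Pou5f1 start. The ratio of observed to expected CpG dinucleotides was highest in the windows of Sox2 (0.833) and Utf1 (0.638) and lowest in those of Nanog (0.182 before the upstream start), against a median of 0.374 over all windows.

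On the GRCm38 annotation, Pou5f1 (ENSMUSG00000024406) lies at chr17:35506018-35510772, Nanog (ENSMUSG00000012396) at chr6:122707489-122714633 and Sall4 (ENSMUSG00000027547) at chr2:168748332-168767943. Sox2 (ENSMUSG00000074637) is a gene of 1 exon at chr3:34650405-34652461, inside an intron of the noncoding gene Sox2ot. Dppa4 (ENSMUSG00000058550, chr16:48283733-48294237) and Dppa2 (ENSMUSG00000072419, chr16:48303908-48319723) are neighbours on the plus strand. The others are Lin28a (ENSMUSG00000050966, chr4:134003330-134018841), L1td1 (ENSMUSG00000087166, chr4:98726734-98738480), Utf1 (ENSMUSG00000047751, chr7:139943789-139945112) and Dppa5a (ENSMUSG00000060461, chr9:78367052-78368177). Reads were counted without regard to strand, and 14.1% of the exonic bases of Pou5f1, 9.50% of those of Sall4 and 5.86% of those of Lin28a are also exonic in a gene on the opposite strand (Gm19553, Gm14261 and Gm13061). Counted without strand in union mode, a read over such bases fits both genes and is assigned to neither, so the levels of these 3 genes leave those bases out where the annotation used for counting holds both genes.

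The deposited values are counts of reads per gene that the authors had adjusted for batch with ComBat-seq, with ESCs and EpiLCs in separate tables. Their totals ranged from 23427551 to 32096698 per library, and the 10 genes together held 0.443 to 0.501% of the counts in ESCs and 0.370 to 0.391% in EpiLCs. The 13 naïve markers checked were all lower in EpiLCs, with a summed level of 4166 to 4604 counts per 1000000 counts of the library (CPM) in the 6 ESC libraries against 362 to 404 in the 6 EpiLC libraries. Of the formative and primed markers, 8 of the 9 found in both tables were higher in EpiLCs, and Fgf5 and Fgf15 were found in the EpiLC table alone. Of the markers of other cell types, 2 of 8 primitive endoderm genes were in the ESC table (summed level 52.8 to 76.1 CPM) and 3 in the EpiLC table (10.5 to 13.7 CPM), with Gata6, Sox17 and Foxa2 in neither. Of 6 mesoderm and primitive streak genes, 4 were in the ESC table (15.2 to 23.7 CPM) and 2 in the EpiLC table (5.13 to 7.48 CPM), and of 6 neural genes, 3 (81.7 to 103 CPM) and 4 (115 to 149 CPM), among them Nes and Tubb3. Of 6 trophoblast genes, 2 were in each table (9.24 to 10.5 CPM in ESCs and 25.1 to 35.01 CPM in EpiLCs), without Cdx2 and Elf5, and of 6 fibroblast genes, 1 was in the ESC table (3.97 to 4.67 CPM) and 3 in the EpiLC table (4.12 to 7.56 CPM). The part of such cells in any result was not tested. The libraries were made with either of 2 kits, and which library had which kit was not given in the sources used here, so the part of the kit in any result was not tested. All SDs, intervals and p-values below are those of the adjusted counts, and how far the adjustment altered the spread between libraries was not tested.

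**Figure D1:**
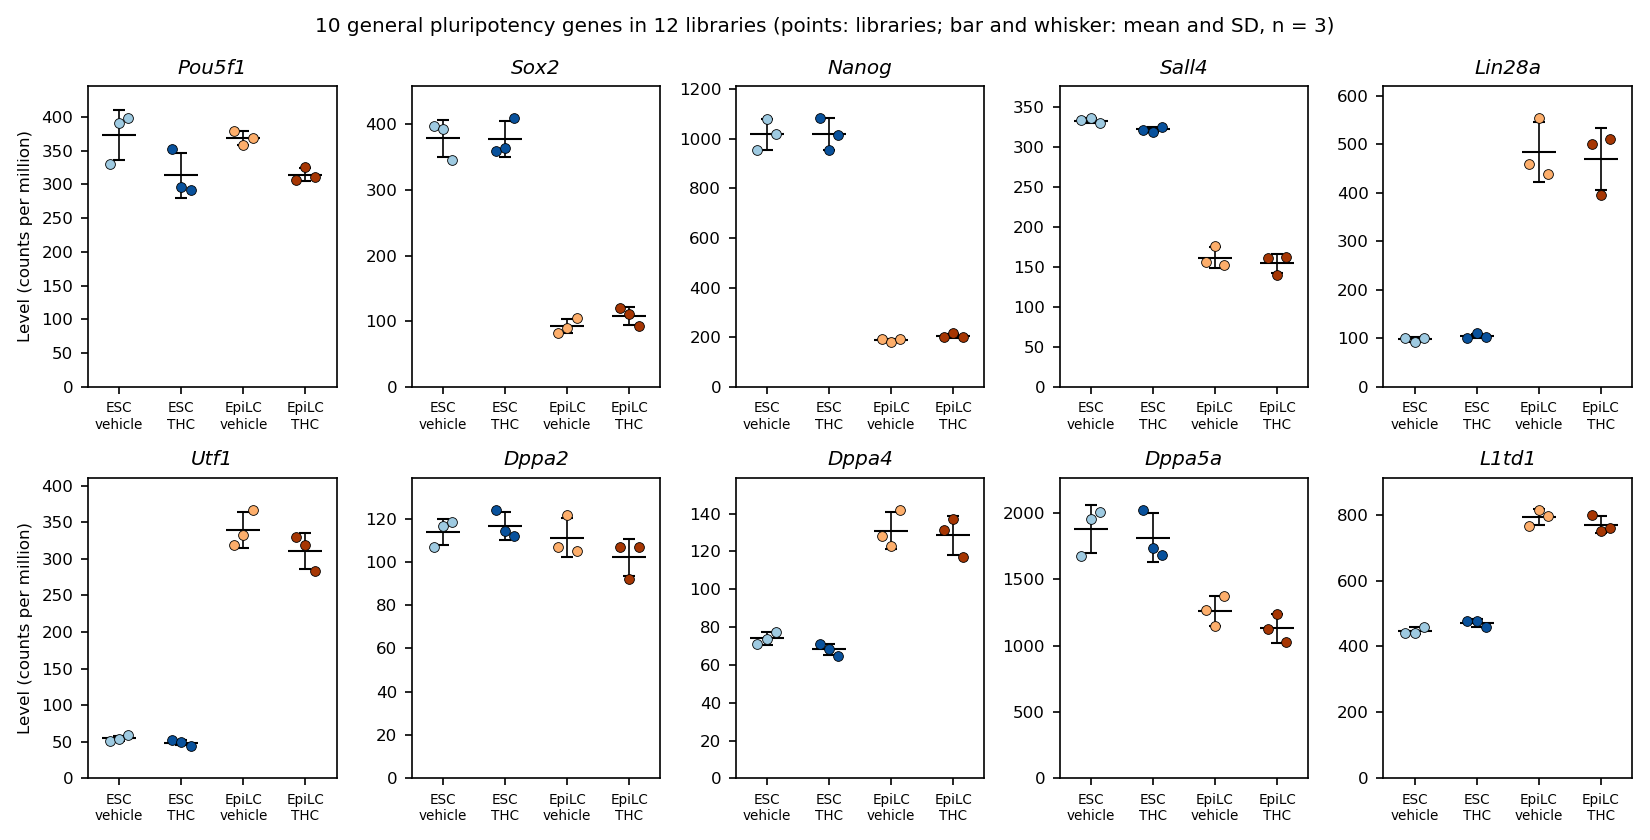
Level of each of the 10 genes, in CPM on a linear axis from 0, in the 4 groups on the horizontal axis. Points are single libraries, and the bar and whisker are the mean and SD of 3. Sox2, Nanog, Sall4 and Dppa5a sit lower in EpiLCs, and Lin28a, Utf1, Dppa4 and L1td1 sit higher. The vehicle libraries of Pou5f1 and of Dppa2 overlap between the cell types.

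The first question was whether these genes were held at 1 level across the transition. All 10 were detected in every library, with at least 92.5 CPM in the vehicle libraries except for Sox2 in EpiLCs and Utf1 and Dppa4 in ESCs, but their levels diverged. In vehicle libraries, Pou5f1 and Dppa2 had overlapping ranges, while Nanog, Sox2, Sall4 and Dppa5a were lower in EpiLCs and Utf1, Lin28a, Dppa4 and L1td1 were higher. No test was made between the cell types, because the tables had been adjusted separately, and the ratios are a description on CPM scaled over the 12 libraries. As to the label of a set of factors kept through the transition, all 10 were detected in both cell types. Of the 13104 genes of the ESC table, 12410 were also in the EpiLC table, and both tables had been filtered for low counts. The vehicle libraries of Pou5f1 and Dppa2 overlapped between the cell types, where 75.4% of all genes did not overlap. Overlap in so few libraries does not show that a level was kept. In bulk RNA, fewer cells with a transcript and less transcript per cell cannot be told apart.

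Among the transcription factors, Pou5f1 stood at 330.3, 391 and 398 CPM in the 3 vehicle ESC libraries and at 379, 359 and 369 CPM in the 3 vehicle EpiLC libraries. Its EpiLC libraries all fell inside the ESC range, and the log2 ratio of EpiLCs to ESCs was −0.017 ± 0.089 (SE, n = 3 and 3). Of all 12410 genes in both tables, 98.0% had a larger ratio in size. Sox2, its DNA-binding partner, stood at 398, 392 and 345 CPM in vehicle ESCs and at 82.8, 90.1 and 105 CPM in vehicle EpiLCs. The groups were far apart, with a level 4.09-fold lower in EpiLCs (log2 ratio −2.03 ± 0.12). Nanog was the member with the largest difference downward, at 955, 1078 and 1019 CPM in vehicle ESCs against 191, 179.6 and 192 CPM in vehicle EpiLCs, which is 5.42-fold lower (log2 ratio −2.44 ± 0.059). Sall4, at 334, 336 and 329 CPM in vehicle ESCs and 156, 176 and 153 CPM in vehicle EpiLCs, was 2.06-fold lower. Within libraries, and without a correction for length, the log2 ratio of Sox2 to Pou5f1 counts was 0.27, 0.0039 and −0.20 in the 3 vehicle ESC libraries and −2.19, −1.99 and −1.81 in the 3 vehicle EpiLC libraries.

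Among the RNA-binding members, Lin28a stood at 101, 92.5 and 100.0 CPM in vehicle ESCs and at 459, 554 and 439.9 CPM in vehicle EpiLCs, a level 4.96-fold higher. L1td1, which had the tightest libraries of the genes that were higher, stood at 441, 441 and 459.8 CPM in vehicle ESCs and at 766, 815 and 797 CPM in vehicle EpiLCs, or 1.77-fold higher. Dppa5a was the most abundant of the 10 in every library. It stood at 1675, 1953 and 2007 CPM in vehicle ESCs and at 1266, 1149 and 1376 CPM in vehicle EpiLCs, which is 1.49-fold lower and without overlap. Lin28b, the paralogue of Lin28a, was also higher in EpiLCs (mean of 10.9 CPM in vehicle ESCs and 67.0 in vehicle EpiLCs).

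Among the chromatin-associated members, Utf1 had the largest ratio of the 10, at 51.0, 53.8 and 58.6 CPM in vehicle ESCs and 319, 333 and 367 CPM in vehicle EpiLCs. Its level was 6.24-fold higher in EpiLCs (log2 ratio 2.64 ± 0.083), and 2.86% of all genes had a larger ratio in size. Dppa2 and Dppa4, whose proteins work as a pair, differed from each other in this respect. Dppa2 stood at 107, 116 and 118 CPM in vehicle ESCs and 107, 121 and 105 CPM in vehicle EpiLCs, while Dppa4 stood at 70.9, 73.6 and 77.4 CPM in vehicle ESCs and 128, 123 and 142 CPM in vehicle EpiLCs. The Dppa2 libraries overlapped between cell types, and those of Dppa4 were 1.77-fold higher in EpiLCs without overlap.

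Against all 12410 genes in both tables, 2 of the 10 genes were more than 2-fold higher in vehicle EpiLCs (Utf1 and Lin28a), where 11.2% of all genes were, and 3 were more than 2-fold lower (Nanog, Sox2 and Sall4), where 10.5% were. The vehicle libraries of the cell types did not overlap for 8 of the 10 genes, against 75.4% of all genes. The median size of the log2 ratio was 0.93 over the 10 genes and 0.48 over all genes. The naïve markers spread much further, with a median log2 ratio of −4.49 over 13 genes, of which 12 were more than 2-fold lower. The same ratios in Δ9-THC libraries ran from −2.31 for Nanog to 2.68 for Utf1 and kept the direction of the vehicle ratio in 9 of the 10 genes, the exception being Pou5f1 at 0.0065. The Δ9-THC libraries of Dppa2, unlike those given vehicle, did not overlap between cell types (log2 ratio −0.19 ± 0.084). The share of all genes without overlap was counted in vehicle libraries alone. The effect of Δ9-THC on Dppa2 was not called as different between cell types (−0.16 on the log2 scale, edgeR adjusted p = 0.567).

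**Figure D2:**
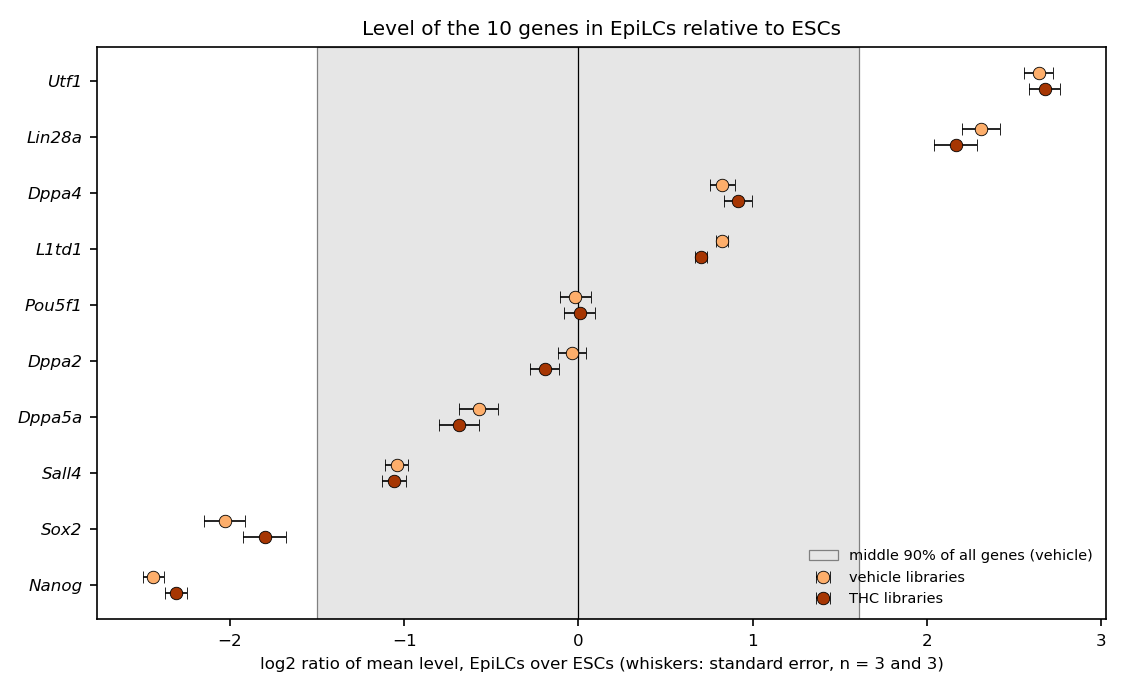
Log2 ratio of the mean level in EpiLCs to that in ESCs (horizontal axis) for each gene (vertical axis), in vehicle and in Δ9-THC libraries, with standard errors as whiskers and the middle 90% of all genes shaded, from −1.50 to 1.61. Nanog and Sox2 lie below the shaded range, and Lin28a and Utf1 above it.

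A comparison of levels between genes needs a correction for transcript length, so CPM were divided by the merged exon length of each gene in kb. In vehicle ESCs, Dppa5a led with 3035 ± 288 CPM per kb (SD, n = 3), followed by Nanog (454 ± 27.5), Sox2 (184 ± 13.97), Pou5f1 (166 ± 16.6), L1td1 (141 ± 3.36) and Sall4 (60.2 ± 0.590). Dppa2 (46.5), Dppa4 (44.5) and Utf1 (44.4) followed with overlapping libraries, and Lin28a was last at 24.4 ± 1.13. Sox2 and Pou5f1 also overlapped as neighbours. Dppa5a ranked 3rd of 12058 protein-coding genes on this scale, Nanog 71st and Lin28a 2029th.

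In vehicle EpiLCs the order per length was different below Dppa5a, which kept the first place at 2041 ± 183 CPM per kb. Utf1 (277 ± 20.1) and L1td1 (249.7 ± 7.86) came next, then Pou5f1 (164 ± 4.51), Lin28a (121 ± 15.3), Nanog (83.6 ± 3.06) and Dppa4 (78.9 ± 5.99), of which the last 2 overlapped. Dppa2 (45.4) and Sox2 (45.0) overlapped as well, and Sall4 was last at 29.2 ± 2.29. Utf1 thus went from the 9th to the 2nd place among the 10 genes, and Nanog from the 2nd to the 6th. With the length of the longest transcript in place of merged exons, Pou5f1 stood above Sox2 in vehicle ESCs (274 and 184 CPM per kb) and above L1td1 in vehicle EpiLCs (271 and 269), the latter with overlap.

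**Figure D3:**
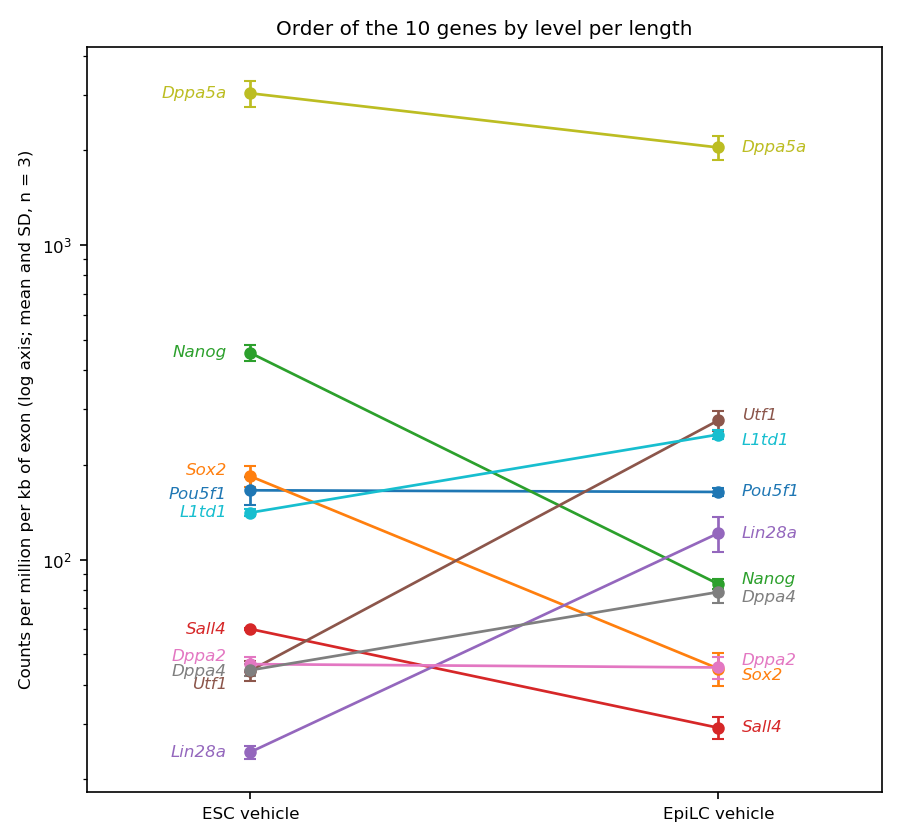
Mean level per kb of merged exon, in CPM on a log axis, of the 10 genes in vehicle ESCs (left) and vehicle EpiLCs (right), with the SD of 3 libraries as whiskers. Lines join the same gene, and the lines of Utf1 and Lin28a cross those of Nanog and Sox2, while those of Pou5f1 and Dppa2 run level.

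The second question was whether Δ9-THC altered these genes within a cell type, tested with edgeR's quasi-likelihood test over all genes. None of the 10 passed an adjusted p of 0.05 in ESCs, where 6.91% of 13104 genes passed. DESeq2 also called 0 of the 10 in ESCs, and 759 of all genes. At an unadjusted p under 0.05 the ESC count was 3 of 10 (Pou5f1, Lin28a and L1td1), against 28.7% of all genes. In EpiLCs 0 of the 10 passed, as did 0.0% of 13717 genes, and at an unadjusted p under 0.05 the count was 1 of 10 (Pou5f1), against 15.1% of all genes, with DESeq2 calling 0 of the 10 and 87 of all genes. The count over all genes in ESCs, 906, was 0 or 1 when any 1 of the 6 ESC libraries was left out, and the count of members stayed at 0. The median log2 fold change of the 10 genes was −0.010 in ESCs and −0.054 in EpiLCs, beside 0.0041 and 0.0030 over all genes.

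Pou5f1 had the largest fold change in size of the 10 genes in ESCs and was close to Sox2 in size in EpiLCs, where Sox2 was the larger with library totals and with the GC and length offsets. In ESCs its 3 vehicle libraries (330.3, 391 and 398 CPM) and 3 Δ9-THC libraries (352, 297 and 291 CPM) overlapped, with the first vehicle library below the first exposed library. The log2 fold change was −0.24 (95% interval −0.47 to −0.0038, edgeR adjusted p = 0.168, unadjusted p = 0.0473). In EpiLCs the 3 exposed libraries (307, 326 and 312 CPM) all lay below the 3 vehicle libraries (359 to 379 CPM), and the log2 fold change was −0.23 (95% interval −0.37 to −0.087, edgeR adjusted p = 0.200, unadjusted p = 0.0068). The values in ESCs and EpiLCs were close, and their difference was 0.024 (95% interval −0.24 to 0.28, edgeR adjusted p = 0.958). Fold changes over all genes ran with the GC content of the gene, at a Spearman rank correlation across genes of −0.54 in ESCs and −0.30 in EpiLCs, and genes are not independent replicates. GC content was taken from the longest transcript of each gene. That of Pou5f1 had 57.6% GC, above 89.3% of genes. After offsets for GC content and length the Pou5f1 log2 fold change was −0.13 in ESCs and −0.14 in EpiLCs.

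For Sox2 the vehicle and Δ9-THC libraries overlapped in both cell types. Its log2 fold change was 0.013 in ESCs (95% interval −0.16 to 0.19) and 0.23 in EpiLCs (95% interval −0.074 to 0.52, edgeR adjusted p = 0.448). Nanog had nearly identical means in vehicle and exposed ESCs (1017 ± 61.6 and 1017 ± 64.3 CPM, SD, n = 3), whereas the exposed EpiLC libraries (202, 215 and 199 CPM) all lay above those given vehicle (179.6 to 192 CPM). That shift was 0.13 on the log2 scale and did not pass the test (95% interval −0.016 to 0.28, edgeR adjusted p = 0.373). Sall4 had exposed ESC libraries of 321, 319 and 325 CPM, just below the 329 to 336 CPM of the vehicle libraries, for a log2 fold change of −0.033 (95% interval −0.091 to 0.024, edgeR adjusted p = 0.407). In EpiLCs its libraries overlapped (log2 fold change −0.065, 95% interval −0.28 to 0.15, edgeR adjusted p = 0.772).

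Lin28a stood at 102, 110.3 and 102 CPM in exposed ESCs, all above the vehicle libraries (92.5 to 101 CPM), with a log2 fold change of 0.12 (95% interval 0.0041 to 0.23, edgeR adjusted p = 0.162). In EpiLCs its libraries overlapped broadly, with 501, 397 and 512 CPM after exposure and a log2 fold change of −0.044. L1td1 had 478, 479 and 459 CPM in exposed ESCs, above the vehicle libraries in 2 of 3 (441 to 459.8 CPM), and had the smallest adjusted p of the 10 in ESCs (log2 fold change 0.093, 95% interval 0.020 to 0.17, edgeR adjusted p = 0.107). Its EpiLC value was −0.043. Dppa5a had overlapping libraries and log2 fold changes of −0.033 in ESCs and −0.16 in EpiLCs, the latter with a 95% interval of −0.41 to 0.089.

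The chromatin-associated members also overlapped between exposures in both cell types. Utf1 had log2 fold changes of −0.15 in ESCs and −0.13 in EpiLCs, Dppa4 of −0.10 and −0.028, and Dppa2 of 0.051 and −0.12. The longest transcript of Utf1 had 63.5% GC, above 99.3% of genes, and with offsets for GC content and length the Utf1 value in ESCs was 0.036. The groups did not overlap for 2 of 10 genes in ESCs (Sall4 lower, Lin28a higher), against 33.0% of all genes, and for 2 of 10 in EpiLCs (Pou5f1 lower, Nanog higher), against 21.8% of all genes.

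**Figure D4:**
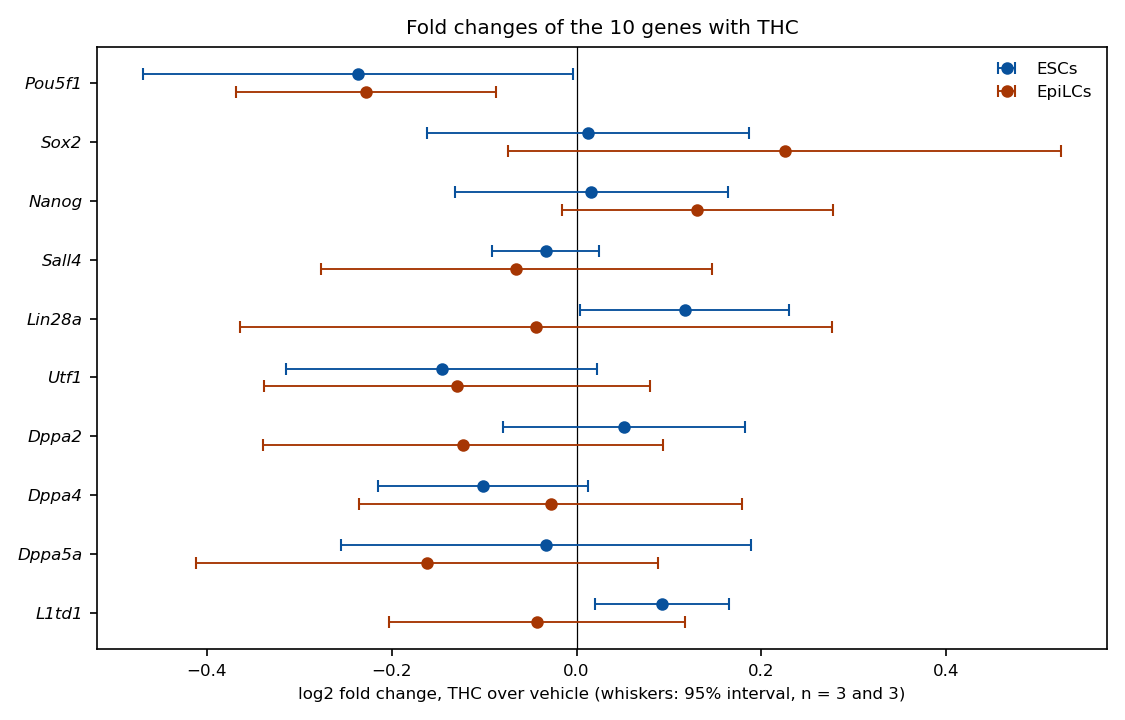
Log2 fold change of each gene with Δ9-THC relative to vehicle (horizontal axis) in ESCs and EpiLCs, with 95% intervals from edgeR as whiskers (n = 3 and 3). All intervals include 0 except those of Pou5f1 in both cell types and of Lin28a and L1td1 in ESCs, and no value passed the adjusted threshold.

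The effect of Δ9-THC was then compared between the cell types as an interaction in a model of all 12 libraries. None of the 10 genes was called by edgeR or DESeq2, beside 0.0322% of 12410 genes by edgeR and 133 of all genes by DESeq2. At an unadjusted edgeR p under 0.05 the count was 0 of the 10, against 13.7% of all genes. The differences of the log2 fold change, EpiLCs minus ESCs, ran from −0.16 for Dppa2 (95% interval −0.40 to 0.082) to 0.23 for Sox2 (95% interval −0.10 to 0.56). Between these were Lin28a at −0.15, L1td1 at −0.12, Dppa5a at −0.11, Sall4 at −0.016, Pou5f1 at 0.024, Utf1 at 0.034, Dppa4 at 0.090 and Nanog at 0.13.

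Ratios of counts within a library do not depend on how libraries are scaled, and 3 pairs were compared. The log2 ratio of Nanog to Pou5f1 was 1.53, 1.46 and 1.36 in vehicle ESCs and 1.62, 1.68 and 1.80 in exposed ESCs, and −0.988, −0.998 and −0.942 in vehicle EpiLCs against −0.60, −0.60 and −0.65 in exposed EpiLCs. All exposed libraries thus lay above all vehicle libraries of their cell type, by 0.25 in ESCs and 0.36 in EpiLCs. How often the ratios of other gene pairs fail to overlap was not counted. As single genes, 33.0% of all genes in ESCs and 21.8% in EpiLCs did not overlap between exposures. With 3 against 3 libraries an exact 2-sided permutation test cannot go below p = 0.1, which both values reached (Benjamini-Hochberg adjusted p = 0.15 over 6 exact tests). The test takes the libraries as exchangeable, while same-numbered vehicle and exposed libraries deviated from their group means as mirror images (last section). How far that altered the p-values of the 6 exact tests was not tested. The longest Nanog transcript had 45.8% GC. With the GC and length offsets the log2 fold changes of Nanog and Pou5f1 were −0.054 and −0.13 in ESCs and 0.12 and −0.14 in EpiLCs.

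The log2 ratio of Sox2 to Pou5f1 was higher in exposed EpiLCs (−1.35, −1.55 and −1.74) than in vehicle EpiLCs (values above), without overlap (exact permutation p = 0.1, adjusted p = 0.15), and overlapped in ESCs (exact permutation p = 0.2, adjusted p = 0.24). The log2 ratio of Dppa2 to Dppa4 was 0.59, 0.66 and 0.61 in vehicle ESCs and 0.80, 0.73 and 0.79 in exposed ESCs, again without overlap (exact permutation p = 0.1, adjusted p = 0.15). With the GC and length offsets, the ESC log2 fold changes of Dppa2 and Dppa4 were −0.047 and −0.13. In EpiLCs the ratio of this pair overlapped between exposures (−0.24 ± 0.21 and −0.33 ± 0.22, SD, n = 3, exact permutation p = 0.6). None of the 6 ratio comparisons passed the threshold.

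**Figure D5:**
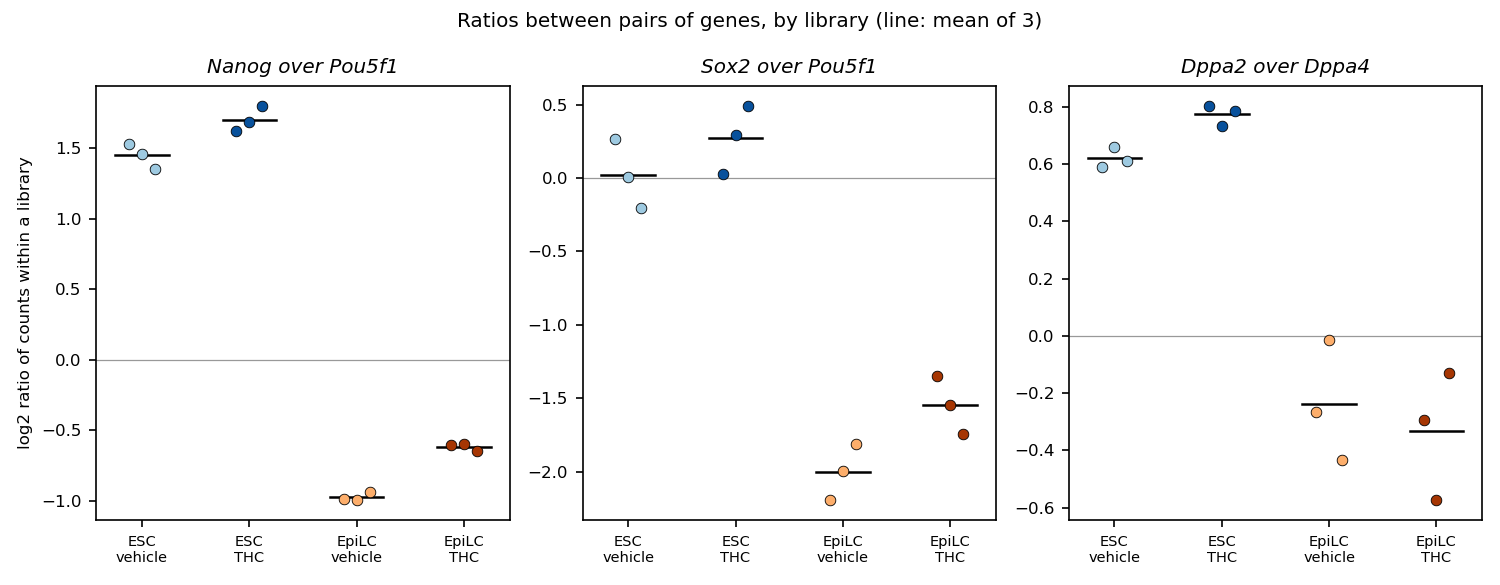
Log2 ratio of counts within each library (vertical axis) for 3 pairs of genes, by group (horizontal axis), with the mean of 3 libraries as a line. The exposed points lie above the vehicle points of the same cell type for Nanog over Pou5f1 in both cell types, for Sox2 over Pou5f1 in EpiLCs and for Dppa2 over Dppa4 in ESCs.

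Other genes of the same network gave a setting for these values. Of 24 further genes of the shared pluripotency network, all were in both tables, 10 were higher and 14 lower in vehicle EpiLCs, and 1 (Lefty1, a Nodal antagonist) and 3 (Tdh, Fbxo15 and Mybl2) were past 2-fold. None of the 24 was called with Δ9-THC by edgeR with TMM scaling within a cell type. The smallest p belonged to Tcf7l1, a repressor downstream of Wnt, in ESCs (log2 fold change −0.16, edgeR adjusted p = 0.0546, or 0.0241 when scaled by library totals) and to Rif1 in EpiLCs (log2 fold change 0.43, edgeR adjusted p = 0.160), and Rif1 was called by DESeq2 (adjusted p = 0.018) and in the fit of 12 libraries (edgeR adjusted p = 0.019). The median log2 fold change of the list was 0.0022 in ESCs and −0.0043 in EpiLCs.

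Among 11 let-7 targets and LIN28 partners, 3 were higher and 8 lower in vehicle EpiLCs, where Lin28a itself was higher. With Δ9-THC in ESCs, 1 of the 11 passed the test, beside 6.91% of all genes. This was Dis3l2, an exonuclease that degrades the let-7 precursors marked through LIN28, which was lower (log2 fold change −0.17 ± 0.038, SE, edgeR adjusted p = 0.0478). In EpiLCs 0 of 11 passed, and the smallest p was that of Igf2bp3 (log2 fold change 0.13, edgeR adjusted p = 0.370). Of 11 genes of the two-cell-like state, which Dppa2 and Dppa4 are known to activate, only 2 were in the ESC table and 4 in the EpiLC table, and 0 were called. The smallest p was that of Zscan4c in ESCs (log2 fold change 0.45, edgeR adjusted p = 0.0738) and of Zscan4d in EpiLCs (log2 fold change −0.21, edgeR adjusted p = 0.464).

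Of the naïve markers, 0 of 13 passed in either cell type. The smallest p in ESCs was that of Tfcp2l1 (log2 fold change 0.11, edgeR adjusted p = 0.0543). In EpiLCs it was that of Prdm14 (log2 fold change 0.60, edgeR adjusted p = 0.216, from a mean of 0.928 CPM in vehicle libraries). Tfcp2l1 was among the 3 naïve markers that rose in ESCs, while 10 fell. In EpiLCs 9 rose and 4 fell. The median over the 13 values was −0.096 in ESCs and 0.039 in EpiLCs, beside 0.0041 and 0.0030 over all genes. The direction of the list as a whole was not tested. Of the 9 formative and primed markers in the ESC table, 7 fell and 2 rose with Δ9-THC in ESCs. Their median log2 fold change was −0.11, and their direction as a whole was not tested. Of the 9, 2 were called, both lower, beside 6.91% of all genes called in either direction. They were Pou3f1, a POU factor of the primed epiblast (log2 fold change −0.96 ± 0.10, SE, edgeR adjusted p = 0.0265), and Sox3 (−0.40 ± 0.089, SE, edgeR adjusted p = 0.0498). Both had low levels in ESCs, at means of 3.84 and 3.999 CPM in vehicle libraries. In EpiLCs 0 of 11 passed (smallest p for Fgf15, log2 fold change −0.13, edgeR adjusted p = 0.409). The calls of Pou3f1, Sox3 and Dis3l2 were each lost when any 1 of the 6 ESC libraries was left out and with the GC and length offsets (edgeR adjusted p = 0.082, 0.548 and 0.082). Their log2 fold changes with 1 library left out stayed at −1.04 to −0.92 for Pou3f1, −0.45 to −0.36 for Sox3 and −0.19 to −0.15 for Dis3l2, and with the offsets they were −0.74, −0.14 and −0.30.

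In the lists of other lineages no gene was called by edgeR with TMM scaling in either cell type. In ESCs the smallest p of each list belonged to Lama1 (primitive endoderm, log2 fold change −0.25), Eomes (primitive streak, 0.43), Nes (neural, −0.22), Ascl2 (trophoblast, 0.54), Prdm1 (germ cells, 0.19) and Col1a1 (fibroblasts, 0.039). In EpiLCs it belonged to Dab2 (0.29), Eomes (0.18), Tubb3 (−0.24), Ascl2 (−0.26), Dppa3 (−0.24) and Col1a1 (−0.54). Their edgeR adjusted p ran from 0.059 to 0.571 over the ESC and EpiLC values named, apart from Col1a1 in ESCs at 0.824, and in ESCs Lama1 was called by DESeq2 (adjusted p = 0.037) and Nes by edgeR with library totals (adjusted p = 0.034).

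Finally, the genes with the most similar pattern over the 12 libraries were found by the distance between log2 CPM values, each centred on the mean of its own gene. The nearest to Pou5f1 were Gpn2 (distance 0.196), Rps4x, a ribosomal protein gene (0.218), and P2rx3 (0.231), against a median of 1.13 over 12410 genes, and the nearest of the 10 genes was Dppa2, in place 793. For Sox2 they were B4galt6, a glycosphingolipid enzyme (0.280), Sorl1, a sorting receptor (0.296), and Egfl6 (0.306), and for Nanog they were Tdrp (0.187), Manba, a lysosomal mannosidase (0.227), and Fam129a (0.234). Nanog was in place 249 for Sox2 and Sox2 in place 161 for Nanog. For Sox2 and Nanog the distance is set mostly by the difference between cell types. Pou5f1 and Dppa2 had close log2 ratios of EpiLCs to ESCs in vehicle libraries (−0.017 and −0.035), and their distance of 0.547 was not set mostly by that difference. All distances are a description over 12 libraries.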

How the data were processed

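RNA from ESCs and EpiLCs, with vehicle or with Δ9-THC at 100 nM, was measured in 12 libraries, 3 per group. Reads were aligned by the authors with STAR. The authors counted unique reads per gene with HTSeq without strand, removed genes with low counts and adjusted the counts with ComBat-seq, and they deposited these counts as whole numbers, 1 table per cell type. The batches and the kit of each library are not given in the sources used here, and the genome is named as mm10 in some places and GRCm39 in others. Each of the 12 columns was matched to its library by its label. PGCLC libraries were not analysed here.

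Within ESCs and within EpiLCs, exposures were compared by the quasi-likelihood test of edgeR 4.0.16 (TMM scaling, genes with a total over 10 counts, Benjamini-Hochberg adjustment over all genes, threshold 0.05) in R 4.3.3, and between cell types by an interaction over 12 libraries. The 95% intervals use the t distribution of that fit. CPM were scaled by TMM over the 12 libraries, and levels of ESCs and EpiLCs were not tested against each other. Fold changes within a cell type were scaled over the libraries of that cell type alone. They can therefore differ slightly from the ratio of the mean CPM. Symbols, exon lengths and positions came from GENCODE release 21 (GRCm38), with symbols for 13085 of 13104 and 13698 of 13717 genes, and promoter windows from RefSeq (GRCm38.p6). The fits were tested on simulated counts, drawn independently for each library and without the ComBat-seq adjustment. In these, 200 genes were given changes larger than any fold change of the 10 genes with Δ9-THC. The simulation thus cannot give the error rates of the fits on the adjusted counts. Alternatives were RLE scaling, library totals, a minimum of 10 counts per library, no filter on counts, DESeq2 1.42.0, the replicate number as a block, offsets for GC content and length (splines with 5 degrees of freedom), both together, a fit of 12 libraries and each library left out in turn. Totals were 23427551 to 32096698 counts per library. Counting error is comparable to the spread between libraries for Sall4 in ESCs and limits the list genes of a few CPM. P-values measure the spread between adjusted counts of repeated cultures, and how far the adjustment altered that spread was not tested.

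All 10 genes are named in each comparison of levels and exposures. From each gene list and cell type, the called genes with the largest fold changes (up to 3) are named, or else the gene with the smallest p, and for Pou5f1, Sox2 and Nanog the 3 nearest genes. Genes of the shared network past 2-fold between cell types, Lin28b, and genes absent from both tables were added after their values were seen. The members and lists were chosen with earlier results of these data known. Tables were made with pandas 2.3.3 under Python 3.11.15, and plots with matplotlib 3.10.9.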

Additional observations from a re-analysis of the deposited data

How the results depend on the processing

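No alternative called any of the 10 genes in either cell type or for a difference between cell types. Over 180 refits of the members with all libraries, 167 kept their direction, and the lowest adjusted p was 0.052 (Pou5f1 in ESCs, DESeq2). The counts over all genes were less stable. In ESCs the 906 calls became 5 with the replicate block, 2 with the GC and length offsets, 3 with both, 31 in the fit of 12 libraries, 0 without vehicle replicate 1 or 3 or THC replicate 1 or 3, and 1 without vehicle or THC replicate 2. In EpiLCs the 0 calls became 87 with DESeq2 and 411 in the fit of 12 libraries. The 4 calls of the interaction became 133 with DESeq2 and 0 with the replicate block, with the GC and length offsets and without any 1 library. Among the genes of the context lists, the 3 calls in ESCs became 13 with library totals, 1 in the fit of 12 libraries, and 0 with the replicate block, the offsets, both, or any 1 library left out, and the 0 calls in EpiLCs became 1 with DESeq2 and 1 in the fit of 12 libraries. The causes of these shifts were not tested.

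None of the values whose direction turned was called. These included Utf1 in ESCs, at −0.15 without offsets, and the Dppa5a difference between cell types, at −0.11 without offsets. In ESCs, Sox2 was at −0.035 with library totals and −0.0034 in the fit of 12 libraries, and Nanog at −0.031 and −2.1e-05. With the offsets, and with the offsets and the block, Nanog was at −0.054 and −0.054, Sall4 at 0.036 and 0.036, Utf1 at 0.036 and 0.035, and Dppa2 at −0.047 and −0.047. With library totals, Dppa4 in EpiLCs was at 0.0014 and Col1a1 in ESCs at −0.0091. With the offsets, the difference between cell types was −0.074 for Utf1 and 0.0030 for Dppa5a. With each library left out in turn, the ranges that crossed 0 in ESCs were −0.052 to 0.051 for Sox2, −0.029 to 0.062 for Nanog and −0.12 to 0.015 for Dppa5a. In EpiLCs they were −0.11 to 0.0024 for Sall4, −0.12 to 0.065 for Lin28a and −0.089 to 0.040 for Dppa4, and for the difference between cell types −0.026 to 0.12 for Pou5f1, −0.056 to 0.050 for Sall4 and −0.022 to 0.097 for Utf1. With the longest transcript as length, 6 of 10 genes kept their place in the order in vehicle ESCs and 6 of 10 in vehicle EpiLCs. The log2 ratios of EpiLCs to ESCs kept their direction in 95 of 100 recalculations.

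Replicate numbers were not treated as pairs, since the labels do not say what a number marks. Deviations of same-numbered vehicle and exposed libraries from their group means correlated at −0.987 to −0.977 in ESCs and −0.985 to −0.979 in EpiLCs. They were thus mirror images. Libraries of different numbers correlated at 0.369 to 0.604 in ESCs and 0.223 to 0.695 in EpiLCs. The relation was therefore strongest in size between libraries of the same number, while the fits without the block treat all libraries as independent. Whether a number was a batch in the adjustment is not given in the sources used here. How far the adjustment altered the SDs, intervals and p-values was not tested. With the replicate block the Pou5f1 adjusted p was 0.425 in ESCs and 0.999 in EpiLCs. The lowest count of the 10 genes in a library was 1082 (Utf1, exposed ESCs).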
